A study of Mus musculus with 12 samples.

Results

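The genes of oxidative phosphorylation were followed in bulk mRNA sequencing of mouse ear skin. Members were all protein-coding genes whose symbols begin with Nduf, Uqcr, Cox4 to Cox8, Atp5, mt-Nd, mt-Co, mt-Cyb or mt-Atp. The rule found 103 of 55416 genes in the tables, of which mt-Cytb was taken as the annotation's symbol for mt-Cyb. Of these, 100 had an expected count of at least 10 in at least 3 libraries and were reported, 87 encoded in the nucleus and 13 in mitochondrial DNA (mtDNA). The 3 others, Cox7b2, Cox8c and a second identifier of Atp5o, fell below that limit. All 100 also passed the filter of the test, which kept 17130 genes. The nuclear members were 7 core subunits, 29 accessory subunits and 8 assembly factors of complex I, 8 subunits of complex III, 12 ubiquitous and 6 tissue-restricted subunits of complex IV, and 17 genes of complex V.

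Samples were ears of C57BL/6 mice aged 8 to 12 weeks, in 12 libraries of day 6 that form 4 groups of 3. The group IMQ_Veh received imiquimod, a Toll-like receptor 7 activator that provokes psoriasis-like inflammation, as 20.8 mg of 5% Aldara cream on the ears each day, together with injections of DMSO, the vehicle. IMQ_GW3965 and IMQ_Troglitazone received the same cream and, from day 3, daily intraperitoneal GW3965 (20 mg/kg), an agonist of the liver X receptors, or troglitazone (150 mg/kg), an agonist of PPARγ. UTX_Veh is the vehicle group without imiquimod in its label; the labels neither spell out UTX nor name a cream for it, so imiquimod and the cream base cannot be told apart. Nothing in the labels states that replicates are separate animals, so the p-values reflect only the spread between these samples, which may be technical.

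Oxidative phosphorylation passes electrons from nutrients along complexes I, III and IV of the inner mitochondrial membrane to oxygen, and the proton gradient this builds drives ATP synthesis by complex V. Most subunits are encoded in the nucleus, while mtDNA encodes a few hydrophobic core subunits that are cut from long transcripts of both strands. Several complex IV subunits exist as ubiquitous and tissue isoforms, and those of striated muscle (Cox6a2, Cox7a1, Cox8b) are the best known.

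The start regions of several nuclear members are shown, each with a match to a short motif named below. Any part of these motifs in the changes of expression was not tested. RefSeq windows of 300 bases (250 before and 50 after the annotated start, build GRCm38.p6) were matched by symbol for 70 of the 87 nuclear members. The letters searched on both strands were CGCATGCG for NRF1, a regulator of respiratory chain genes, CCGGAAGT for ETS factors such as GABP, AAGATGGCG for YY1, TCAAGGTCA for the estrogen-related receptors (ERR) and TATAAA for the TATA box. In the sequences below, capitals mark matches, and each window reads 5′ to 3′ along the gene's strand. All 6 of these genes lie on the minus strand, and the positions given count from the annotated start to the first base of the match. Cox8a and Cox8b are a ubiquitous and a muscle isoform of the same complex IV subunit. Uqcr11 and Cox6a1 hold an NRF1 match, Ndufs6 a YY1 match and Atp5g3 the sole ERR match among the members.
Cox8a, chr19:7217567-7217866, ETS at -6 and 32: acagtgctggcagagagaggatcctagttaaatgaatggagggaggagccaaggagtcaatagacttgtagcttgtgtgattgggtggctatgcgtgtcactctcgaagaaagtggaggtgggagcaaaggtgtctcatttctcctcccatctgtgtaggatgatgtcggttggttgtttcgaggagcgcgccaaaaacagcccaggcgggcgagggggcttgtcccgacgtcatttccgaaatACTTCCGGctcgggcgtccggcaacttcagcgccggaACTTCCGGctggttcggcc
Cox8b, chr7:140900397-140900696, TATA at 5: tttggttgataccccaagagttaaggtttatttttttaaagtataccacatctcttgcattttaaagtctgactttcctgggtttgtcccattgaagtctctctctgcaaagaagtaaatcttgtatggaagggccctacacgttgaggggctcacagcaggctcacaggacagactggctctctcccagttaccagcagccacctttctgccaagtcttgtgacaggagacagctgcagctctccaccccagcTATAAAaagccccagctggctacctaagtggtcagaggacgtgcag
Uqcr11, chr10:80406772-80407071, ETS at -66 and NRF1 at -5: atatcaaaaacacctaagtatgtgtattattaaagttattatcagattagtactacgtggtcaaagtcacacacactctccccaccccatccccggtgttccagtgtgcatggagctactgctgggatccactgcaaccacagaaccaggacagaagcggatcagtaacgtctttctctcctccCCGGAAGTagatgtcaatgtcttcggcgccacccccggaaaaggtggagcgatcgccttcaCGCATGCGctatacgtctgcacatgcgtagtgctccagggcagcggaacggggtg
Cox6a1, chr5:115348909-115349208, NRF1 at -161: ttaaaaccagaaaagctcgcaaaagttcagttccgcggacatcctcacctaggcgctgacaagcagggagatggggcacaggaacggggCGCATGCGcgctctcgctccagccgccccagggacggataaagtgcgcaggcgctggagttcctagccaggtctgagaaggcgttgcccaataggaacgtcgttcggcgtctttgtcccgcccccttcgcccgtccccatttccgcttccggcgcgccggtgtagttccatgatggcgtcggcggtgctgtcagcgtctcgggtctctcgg
Ndufs6, chr13:73328433-73328732, YY1 at 34: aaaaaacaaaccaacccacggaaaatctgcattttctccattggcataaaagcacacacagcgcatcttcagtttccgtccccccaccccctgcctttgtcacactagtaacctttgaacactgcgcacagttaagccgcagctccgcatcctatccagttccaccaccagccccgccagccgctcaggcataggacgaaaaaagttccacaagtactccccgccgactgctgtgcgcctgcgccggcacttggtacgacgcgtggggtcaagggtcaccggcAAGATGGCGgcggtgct
Atp5g3, chr2:73911277-73911576, ERR at -52: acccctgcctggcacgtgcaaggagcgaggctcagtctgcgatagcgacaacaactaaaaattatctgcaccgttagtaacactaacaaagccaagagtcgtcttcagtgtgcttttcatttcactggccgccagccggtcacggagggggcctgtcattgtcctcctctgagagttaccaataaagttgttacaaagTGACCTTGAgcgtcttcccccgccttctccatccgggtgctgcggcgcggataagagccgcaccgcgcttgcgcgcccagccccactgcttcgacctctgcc

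Among the 70 matched members, 11 (15.71%) held the NRF1 letters, against 2.07% of 27025 genes in the same table. The YY1 letters were in 8 members (11.43% against 1.64%), the ETS letters in 5 (7.14% against 4.31%) and the ERR letters in 1 (1.43% against 0.47%). The TATAAA letters were in 6 members (8.57% against 15.67%). At least 1 of the NRF1, ETS and YY1 letters was present in 22 members (31.43%), against 7.58% of all genes. By role, the YY1 letters were in 4 of 27 matched accessory subunits of complex I and in 0 of 5 genes of complex III, while the NRF1 letters were in 2 of each. The genes of that table were not limited to expressed or protein-coding genes, so the shares cannot show how members differ from other expressed genes. These matches describe letters in a window and no binding was measured.

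Values are CPM, counts scaled to a common library size after TMM scaling, as mean ± SD over 3 libraries, unless TPM is named. TPM is the authors' value per transcript length and is used to compare levels between genes. By mean TPM over the 12 libraries, the highest nuclear members were Atp5b (1136 TPM), the catalytic beta subunit of ATP synthase, and Ndufa4 (849 TPM), which was named for complex I and later assigned to complex IV. Cox4i1, the ubiquitous form of the largest nuclear-encoded complex IV subunit, followed at 700.3 TPM. The lowest were Cox6b2 (4.80 TPM), a testis form of a complex IV subunit, the assembly factor Ndufaf6 (5.57 TPM) and Cox4i2 (7.88 TPM). The mtDNA-encoded mt-Co1 stood at 15015 TPM. The value of mt-Atp8 was higher (32907 TPM), but its gene is 204 bases long, where the per-length estimate is least certain.

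The names of the tables hold a lane field with 2 values, L001 (7 libraries) and L009 (5 libraries), whose meaning no label gives. Of IMQ_Veh, L001 holds replicate 2 alone. L009 holds a single library of each other group: UTX_Veh replicate 3, IMQ_GW3965 replicate 2 and IMQ_Troglitazone replicate 2. Total expected counts ran from 18242074 to 25641602 per library. Nuclear members took 0.725% to 0.751% of counts in UTX_Veh, 0.897% to 0.985% in IMQ_Veh, 0.887% to 0.947% in IMQ_GW3965 and 0.775% to 0.823% in IMQ_Troglitazone. The mtDNA-encoded members took 4.02% to 4.38%, 3.04% to 3.43%, 3.31% to 3.86% and 2.51% to 3.11%. With the counts of their nearly identical nuclear copies added, these shares were 5.98% to 6.68%, 4.67% to 5.45%, 5.28% to 6.04% and 3.91% to 4.79%. In IMQ_GW3965 replicate 3, a single unnamed feature held 11.62% of counts (0.0454% to 0.1379% elsewhere) and mitochondrial ribosomal RNA 0.532% (0.0415% to 0.0779% elsewhere). Summed keratinocyte markers lay between 18256 and 88694 CPM in the 12 libraries. Summed skeletal muscle markers were lower in IMQ_Veh replicates 1 and 2 (2410 and 2651 CPM) than in replicate 3 (9100 CPM).

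**Figure D1:**
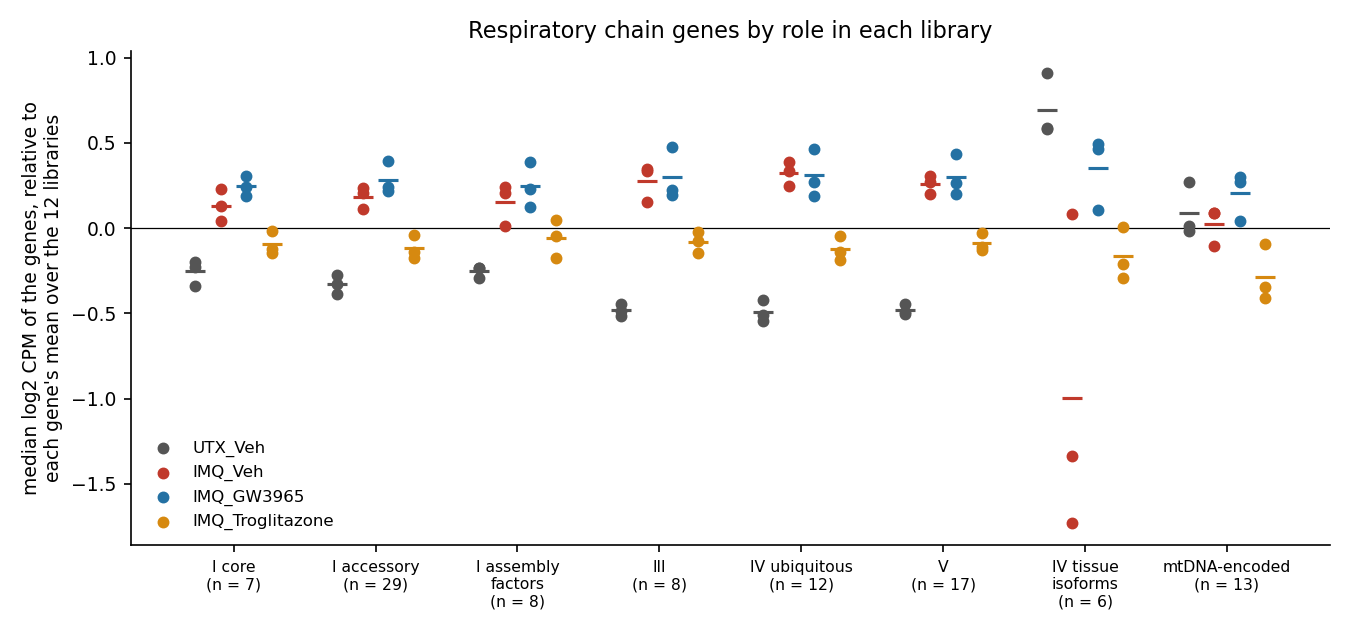
Each point is 1 library: the median, over the genes of a role, of log2 CPM relative to each gene's mean over the 12 libraries; short bars are means of 3 libraries. The nuclear roles other than the complex IV tissue isoforms are lowest in UTX_Veh, while the tissue isoforms are highest there and lie far apart among the IMQ_Veh libraries.

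The first comparison, IMQ_Veh against UTX_Veh, concerns inflamed against uninflamed ear skin. Nuclear respiratory chain genes were higher in IMQ_Veh across complexes I, III, IV and V, by a median of 0.64 log2 units. The muscle isoforms of complex IV were lower by 1.89 to 2.16 log2 units. The mtDNA-encoded genes went in both directions in CPM, though 12 of 13 had a lower mean TPM, without nuclear copies added. By edgeR's quasi-likelihood test over all 17130 genes (Benjamini-Hochberg adjusted p under 0.05, which defines rose and fell here), 70 members rose and 7 fell. Over all genes, 61.9% passed, 33.0% upward and 28.9% downward, and the median log2 fold change was 0.01. Of the 87 nuclear members, 69 rose and 3 fell, and 76 had a positive fold change. In 74 nuclear members the 3 IMQ_Veh libraries all lay above the 3 UTX_Veh libraries, and in 6 all lay below (34.7% and 32.1% of all genes). In bulk RNA, fewer cells of a type and less RNA per cell cannot be told apart.

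In complex I, which takes electrons from NADH, 5 of 7 core subunits and 24 of 29 accessory subunits rose and none fell (medians 0.34 and 0.58 log2). Ndufs8, an iron-sulfur core subunit, was at 34.5 ± 1.03 CPM in UTX_Veh and 57.0 ± 1.05 in IMQ_Veh (log2 fold change 0.72, SE 0.09, adjusted p = 3.645e-05). The core subunit Ndufv2 rose by 0.57 log2 units (adjusted p = 0.0001111).

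Ndufs6, an accessory subunit that helps bind zinc, was measured at 24.9, 27.5 and 26.2 CPM in UTX_Veh, 54.4, 54.4 and 48.2 in IMQ_Veh, 51.9, 51.7 and 57.0 in IMQ_GW3965 and 39.6, 35.1 and 35.3 in IMQ_Troglitazone. Both IMQ_Veh and IMQ_GW3965 lay above all libraries of the other groups, and UTX_Veh lay below all. Its log2 fold change was 1.0 (SE 0.09, adjusted p = 4.679e-06), and that of the accessory subunit Ndufb6 was 0.97. Of the 5 accessory subunits that missed the threshold, Ndufb11 was level between the groups (66.1 ± 0.735 and 66.4 ± 1.24 CPM).

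Of 8 Ndufaf assembly factors, which build complex I without staying in it, 4 rose and none fell. Ndufaf4 was measured at 13.8, 13.3 and 13.5 CPM in UTX_Veh and at 32.6, 40.0 and 23 in IMQ_Veh. All IMQ_Veh values were higher, with a wide spread among them (log2 fold change 1.24, SE 0.17, adjusted p = 9.205e-05). Ndufaf2 rose by 0.94 and Ndufaf8 by 0.62 log2 units.

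All 8 members of complex III, which passes electrons from ubiquinol to cytochrome c, rose, by 0.59 to 1.12 log2 units. Uqcr10, a small subunit of the complex, was at 38.0, 39.9 and 36.9 CPM in UTX_Veh, 84.2, 86.6 and 78.7 in IMQ_Veh, 72.4, 76.2 and 86.6 in IMQ_GW3965 and 60.2, 54.5 and 55.3 in IMQ_Troglitazone. The UTX_Veh and IMQ_Veh libraries did not overlap (adjusted p = 1.94e-06), and IMQ_Troglitazone lay between them. Uqcrq, which binds ubiquinone, rose by 1.02 log2 units (adjusted p = 2.463e-05), and Uqcr11 by 0.89.

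Of 12 ubiquitous genes of complex IV, the cytochrome c oxidase, 11 rose. Ndufa4 (GRCm38, chr6:11900292-11907497, minus strand) had the largest fold change of these (1.55 log2, SE 0.12, adjusted p = 1.713e-06). It was at 111, 121 and 111 CPM in UTX_Veh, 367, 329 and 308 in IMQ_Veh, 255, 292 and 351 in IMQ_GW3965 and 234, 210 and 222 in IMQ_Troglitazone. Every library with imiquimod lay above every UTX_Veh library. Within the L001 libraries, the value was 1.52 log2, and within the L009 libraries 1.57.

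The ubiquitous isoforms that have a muscle partner rose as well. Cox6a1 rose from 72.4 ± 2.2 to 169 ± 14.1 CPM (1.22 log2, SE 0.10, adjusted p = 2.723e-06), Cox8a from 62.4 ± 1.52 to 124 ± 9.61 CPM (0.99 log2) and Cox7a2 by 0.79 log2 units. Cox6b1, which links the monomers of the dimeric enzyme, rose by 1.18 and Cox4i1 by 0.60 log2 units. Cox7a2l, which links complex III to complex IV in supercomplexes, was the ubiquitous member that missed the threshold, at 152 ± 2.61 and 141 ± 11.7 CPM (adjusted p = 0.4264).

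Of 17 genes of complex V, the ATP synthase, 16 rose. Atp5b was at 696, 732 and 757 CPM in UTX_Veh and 1200.4, 1219 and 1066 in IMQ_Veh, without overlap (log2 fold change 0.67, SE 0.09, adjusted p = 8.94e-05). Atp5mpl, a small membrane subunit, was at 19.5, 22.7 and 19.8 CPM in UTX_Veh and 63.1, 53.2 and 50.6 in IMQ_Veh. That was the largest change of the complex, at 1.43 log2 (SE 0.11, adjusted p = 1.58e-06). Atp5g3, 1 of several genes for the rotor ring's c subunit, rose by 1.24 log2 units.

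**Figure D2:**
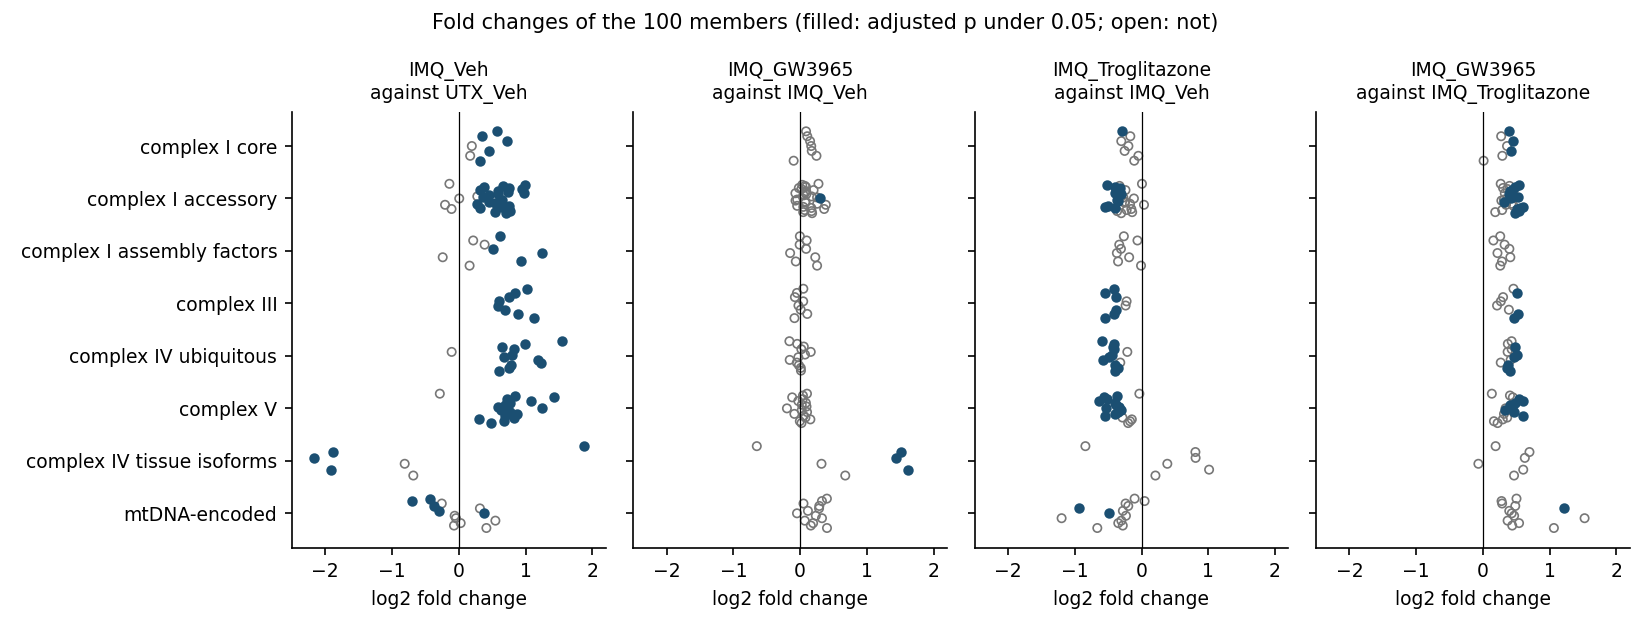
Log2 fold changes of the 100 members by role in 4 comparisons, with filled points for an adjusted p under 0.05. In IMQ_Veh against UTX_Veh most nuclear members lie right of 0 and 3 tissue isoforms near -2; against IMQ_Veh, troglitazone values lie mostly left of 0 and GW3965 values around it.

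Among the 6 tissue isoforms of complex IV, 3 fell and 1 rose. Cox6a2 (chr7:128205435-128206387, minus strand), the heart and skeletal muscle form of subunit 6a, was at 82.0, 85.3 and 94.2 CPM in UTX_Veh, 10.01, 15.4 and 44.1 in IMQ_Veh, 77.4, 68.1 and 67.0 in IMQ_GW3965 and 48.5, 43.4 and 47.9 in IMQ_Troglitazone. All IMQ_Veh values lay below those of UTX_Veh, and replicate 3 was about level with IMQ_Troglitazone. Its log2 fold change was -1.92 (SE 0.39, adjusted p = 0.001251).

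Cox7a1 (chr7:30184144-30186078, plus strand), the muscle form of subunit 7a, was at 18.2, 17.0 and 19.7 CPM in UTX_Veh and 1.5, 3.18 and 7.61 in IMQ_Veh. Its log2 fold change was -2.16 (SE 0.39, adjusted p = 0.0005753). Cox8b, the form of subunit 8 in muscle and brown fat, was at 23.7, 22.2 and 26.9 CPM against 2.80, 4.66 and 12.3 (log2 fold change -1.89, SE 0.38, adjusted p = 0.001106). In both genes IMQ_Veh replicate 3 was the highest of its group and still below UTX_Veh.

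The isoforms were also set against their ubiquitous partners in TPM. Cox6a2 made up 45.98% to 50.81% of the sum of Cox6a2 and Cox6a1 in UTX_Veh, but 4.19%, 6.37% and 18.22% in IMQ_Veh. The shares of Cox7a1 and Cox8b in their pairs followed the same order, from 41.93% to 47.67% in UTX_Veh down to 3.5% and 4.4% in IMQ_Veh replicate 1. With both drugs the shares of these 3 isoforms lay between 19.73% and 30.74%, above all IMQ_Veh libraries. Cox4i2 and Cox6b2 stayed at or under 2.07% of their pairs in all 12 libraries.

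Markers of skeletal muscle moved with these 3 isoforms. All 23 markers fell in IMQ_Veh (median log2 fold change -2.01) and none was at 0 in any library. Their sum was 17874 to 20567 CPM in UTX_Veh, 2410 to 9100 in IMQ_Veh, 10041 to 13992 in IMQ_GW3965 and 7414 to 10896 in IMQ_Troglitazone. With the log2 sum of these markers as a covariate, the fold changes were -0.06 for Cox6a2, -0.45 for Cox7a1 and -0.09 for Cox8b (adjusted p = 0.9002, 0.5208 and 0.8724). The sums of UTX_Veh and IMQ_Veh do not overlap, nor do those of IMQ_Veh and IMQ_GW3965. For both pairs the covariate is confounded with group, so a call kept or lost with it cannot separate muscle content from treatment. Of brown adipocyte markers, 2 of 4 tested fell, Cidea (59.6 ± 3.36 to 28.2 ± 16.1 CPM) and Ppargc1a (11.3 ± 1.23 to 3.59 ± 1.79 CPM), Dio2 rose (7.58 ± 1.03 to 22.1 ± 4.91 CPM) and Elovl3 did not pass. Ucp1 was not tested, at most 0.364 CPM in any library. The part of muscle or brown fat content in these changes was not tested beyond these values.

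Ndufa4l2, a hypoxia-induced relative of Ndufa4, was the tissue isoform that rose. It was at 16.5, 14.6 and 28.8 CPM in UTX_Veh, 94.8, 40.9 and 83.8 in IMQ_Veh, 41.1, 40.7 and 58.2 in IMQ_GW3965 and 59.3, 30.5 and 32.7 in IMQ_Troglitazone. IMQ_Veh did not overlap UTX_Veh (log2 fold change 1.87, SE 0.36, adjusted p = 0.000926), though its replicates differed more than 2-fold. Its share of the pair with Ndufa4 overlapped between all 4 groups (6.56% to 14.16%). With the muscle covariate the fold change was 2.14 and missed the threshold (adjusted p = 0.05152).

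**Figure D3:**
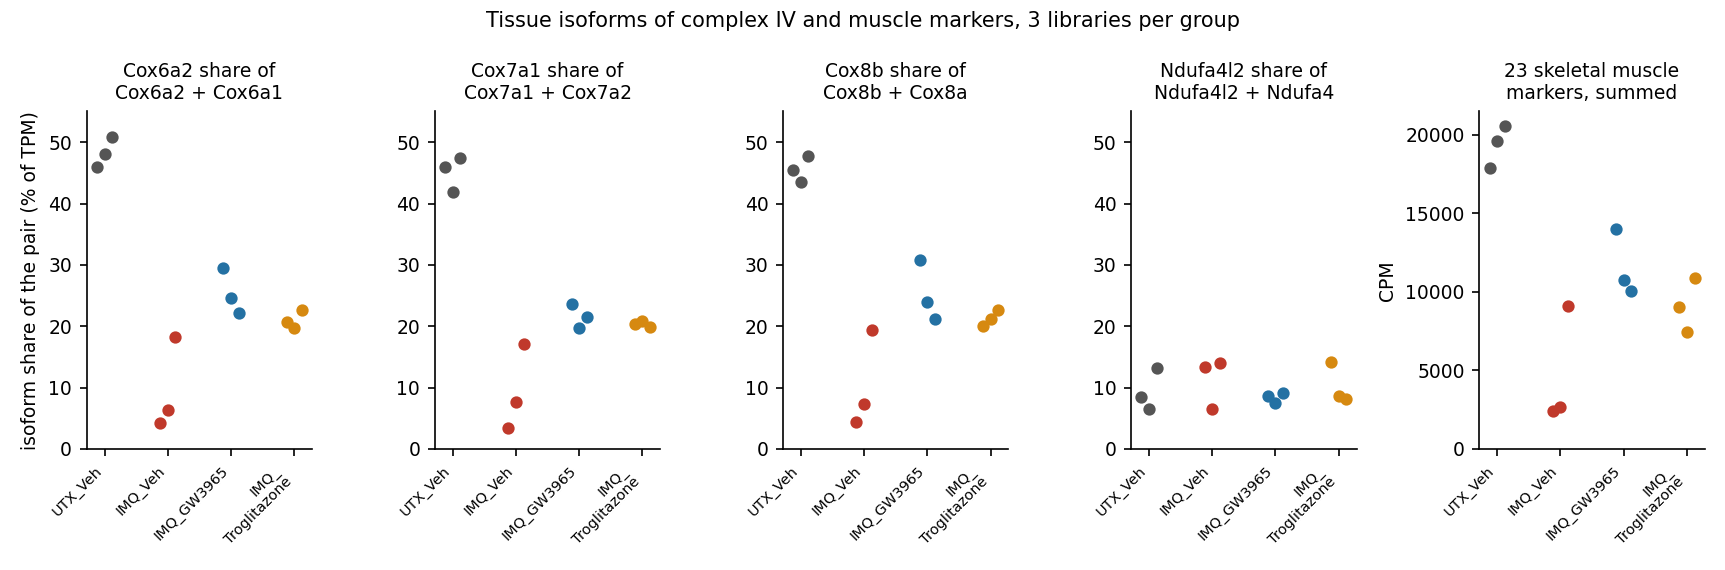
The first 4 panels give each isoform's share of its pair in percent of TPM, and the last the summed CPM of 23 skeletal muscle markers; each point is 1 library. Cox6a2, Cox7a1, Cox8b and the marker sum are highest in UTX_Veh and lowest in IMQ_Veh replicates 1 and 2.

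On the TPM scale, which is relative to all transcripts per length, the rise was smaller for the members named here and did not hold for all: 53 of 87 nuclear members had a higher mean in IMQ_Veh and 34 a lower one. Ndufa4 was at 1084 ± 47.9 TPM in IMQ_Veh and 523 ± 6.54 in UTX_Veh, and Atp5b at 1228 ± 109 and 989 ± 35.7. Cox4i1, at 731 ± 64.1 and 697 ± 30.9 TPM, differed by less than its spread, and Atp5a1, the alpha subunit, chosen after its values were seen, was at 543 ± 40.2 and 575 ± 22.8. Cox7a2l was lower in TPM (195 ± 16 against 305 ± 8.23).

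The rise of the nuclear members was read against transcript length, since they are short. The median length was 674.9 bases for nuclear members and 2393.5 for all 17271 genes with at least 10 counts in at least 3 libraries. In IMQ_Veh against UTX_Veh, the median log2 fold change of other genes went from 0.70 below 400 bases down to -0.27 above 4000. The members' medians lay above those of other genes in each of the 6 length classes that hold members, at 0.70 against 0.58 for 400 to 600 bases (28 members) and 0.67 against 0.49 for 600 to 800 (24 members). With the length trend of each library removed, the nuclear median fell to 0.26. Complex III then had 8 of 8 members higher (median 0.50), ubiquitous complex IV 10 of 12 with 1 lower (0.37) and complex V 13 of 17 with 1 lower (0.37). The accessory subunits of complex I had 12 higher and 4 lower of 29 (0.17). Ndufa4 remained higher by 1.10 log2 units (adjusted p = 4.357e-06). With the muscle covariate, confounded with group here, 33 members were higher and 0 lower. Among them were 13 of complex V, 9 ubiquitous ones of complex IV and 3 of complex III.

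By the lane field, the nuclear median was 0.69 within the L001 libraries, with a single IMQ_Veh library. It was 0.57 within the L009 libraries, with a single UTX_Veh library. The L009 fit has 1 residual degree of freedom.

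**Figure D4:**
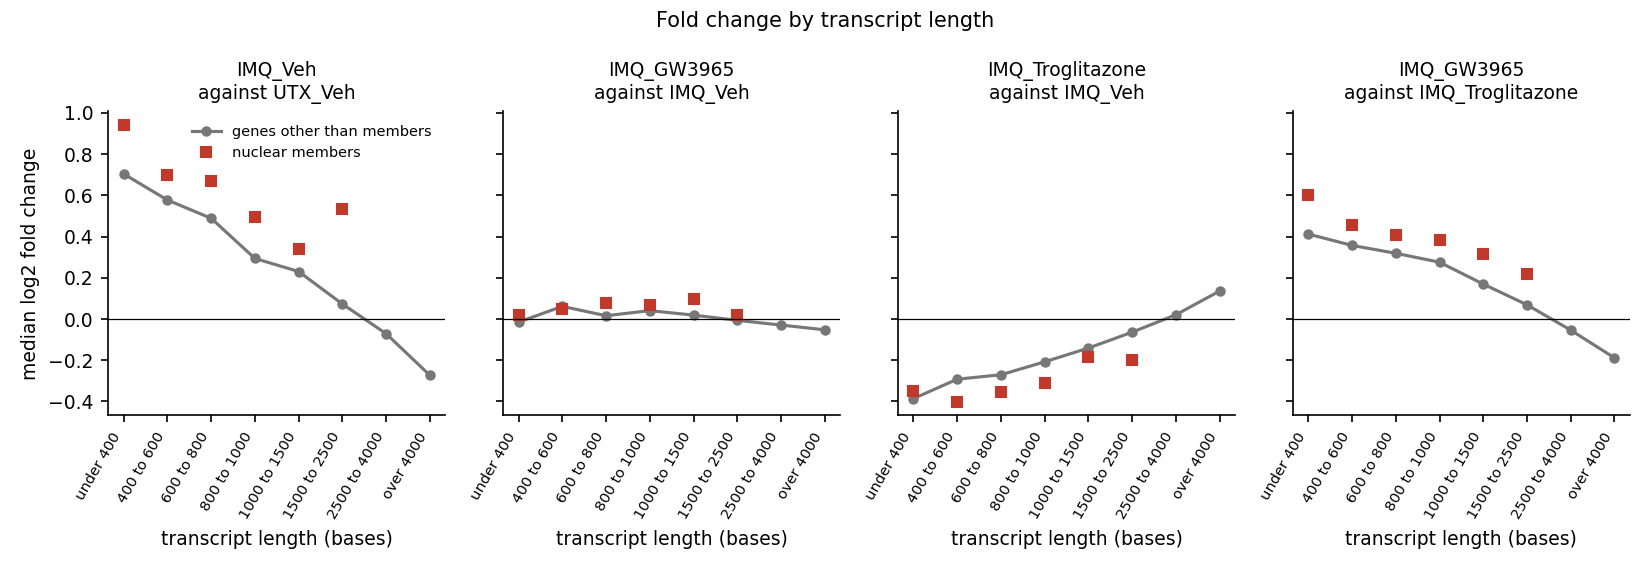
Median log2 fold change by transcript length in bases for genes other than members (grey line) and for nuclear members (red squares). The grey line slopes down from 0.70 to -0.27 in IMQ_Veh against UTX_Veh and up from -0.39 to 0.14 in IMQ_Troglitazone against IMQ_Veh, with the members close to it or further from 0, and is nearly flat for GW3965.

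The direction of the 13 mtDNA-encoded members in IMQ_Veh against UTX_Veh depended on the scale. In CPM from the counts as deposited, they had a median log2 fold change of -0.06, with 1 higher and 4 lower. Of all genes, 33.0% were higher and 28.9% lower, so 4 of 13 lower is near the share of all genes. With the length trend removed, 0 were higher and 6 lower (median -0.41). In TPM, 12 of 13 had a lower mean in IMQ_Veh, among them mt-Co1 (13395 ± 1150 against 19144 ± 576 TPM) and mt-Nd1 (7408 ± 664 against 8285 ± 631 TPM). The mean of mt-Co2 was not lower (308 ± 67.6 against 301 ± 129 TPM), and that difference was within its spread. Reads of 6 of these genes were shared with nuclear copies that are nearly identical in sequence. Features on chromosome 1 held 95.31% of the counts of mt-Atp6 and its copy, 98.19% for mt-Co2, 97.35% for mt-Co3, 78.79% for mt-Nd3, 58.6% for mt-Nd4l and 11.29% for mt-Co1. The TPM values leave these copies out, so the TPM directions of these 6 genes are uncertain. For these 6 the counts of gene and copy were added, a choice made after seeing the data, and values for all 13 come from that table.

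In it, 5 of the 13 genes, all of complex I, were lower in IMQ_Veh, beside 28.9% of all genes in the main fit. mt-Nd5, a proton-pumping subunit, was at 3120, 3292 and 3157 CPM in UTX_Veh and 1952, 1657 and 2284 in IMQ_Veh, without overlap (log2 fold change -0.70, SE 0.16, adjusted p = 0.003131). mt-Nd6, the sole protein gene on its strand, was at 895, 903 and 883 CPM against 651, 521 and 822 (-0.43, adjusted p = 0.02542). mt-Nd4l (-0.42), mt-Nd4 (-0.38) and mt-Nd2 (-0.29) were also lower (adjusted p = 0.03479, 0.02554 and 0.03884).

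mt-Nd1, another complex I subunit, was higher, at 3510, 3957 and 3246 CPM in UTX_Veh and 4717, 4986 and 4214 in IMQ_Veh (0.38, adjusted p = 0.0175). mt-Co2, which receives electrons from cytochrome c, was higher by 0.32 (adjusted p = 0.04581). The other 6 genes had values between -0.07 and 0.09 and did not pass. In the counts as deposited, leaving out a single library (IMQ_Veh replicate 1 or 2, or UTX_Veh replicate 1, 2 or 3) ended the call of mt-Nd1, mt-Nd2, mt-Nd4 or mt-Nd6, with adjusted p between 0.05043 and 0.1199 by edgeR's test, while mt-Nd5 passed without any 1 of the 6 libraries. In the same counts, with the length trend removed, mt-Nd1 was at 0.09 (adjusted p = 0.505). With the muscle covariate, confounded with group here, mt-Nd5 was at -0.38 (adjusted p = 0.4436) and mt-Nd6 at 0.11.

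**Figure D5:**
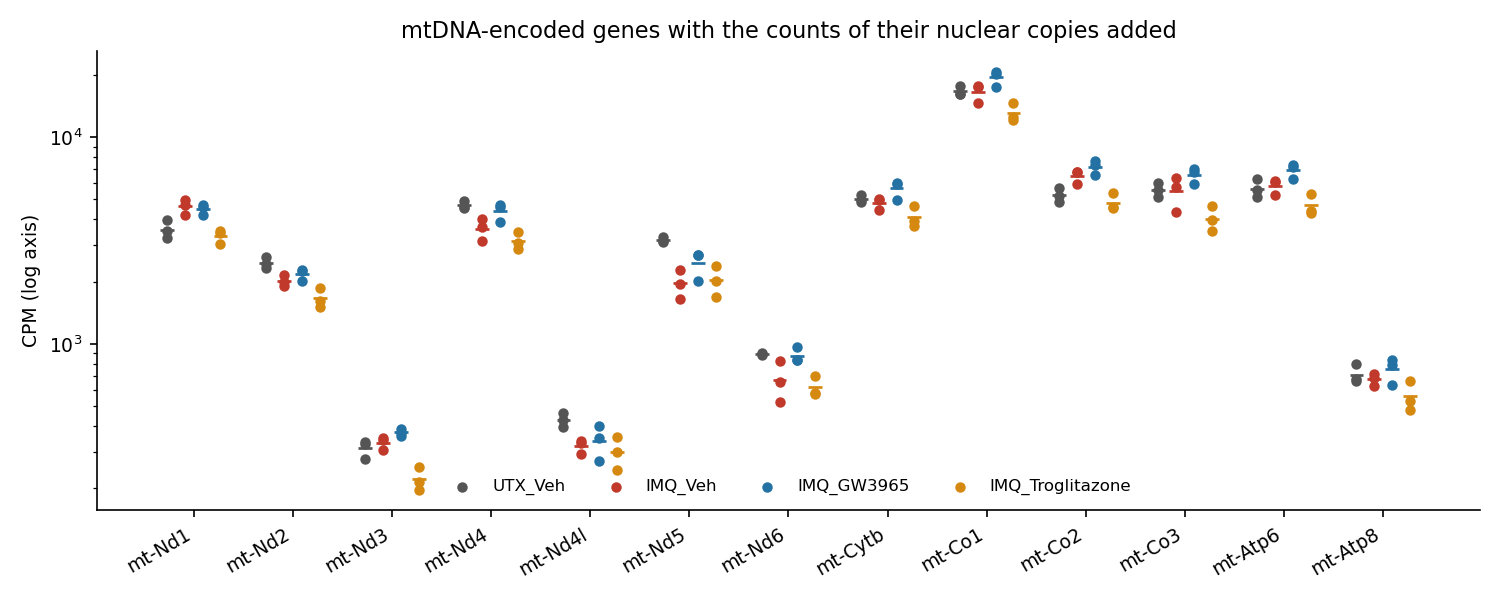
CPM (log axis) of the 13 mtDNA-encoded genes with the counts of their nuclear copies added; points are libraries and bars group means. mt-Nd5 is lower in every IMQ_Veh library than in UTX_Veh, and IMQ_Troglitazone is lowest for mt-Nd3.

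The second comparison, IMQ_GW3965 against IMQ_Veh, concerns the LXR agonist in inflamed skin. It left most respiratory chain genes within the spread of the test: 4 members rose and 0 fell (of all genes, 3.71% and 2.88%, or 6.59% either way). DESeq2 also called 0 lower. By edgeR's test, 14 of 100 members had an unadjusted p under 0.05 in either direction, beside 4435 of all 17130 genes. The nuclear median was 0.05, against -0.01 for all genes.

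Cox6a2, Cox8b and Cox7a1 were 3 of the 4. Cox6a2 was at 70.8 ± 5.71 CPM with GW3965 and 23.2 ± 18.3 without (1.62 log2, SE 0.39, adjusted p = 0.03307). Cox8b was higher by 1.51 (adjusted p = 0.03833) and Cox7a1 by 1.44 (adjusted p = 0.04991). All 3 groups of values were without overlap. With the muscle covariate these were 0.45, 0.35 and 0.35 and not called (adjusted p = 0.3587, 0.5322 and 0.6663). That covariate is confounded with group here as well, and 6 of 23 muscle markers rose.

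Ndufb11, an accessory subunit of complex I, was the fourth. It was at 66.1, 65.4 and 67.8 CPM in IMQ_Veh, 82.8, 78.9 and 84.0 in IMQ_GW3965 and 62.1, 57.5 and 64.5 in IMQ_Troglitazone. All IMQ_GW3965 libraries lay above those of the other groups, UTX_Veh included (log2 fold change 0.30, SE 0.07, adjusted p = 0.02778). Leaving out any 1 library except IMQ_Veh replicate 3 ended all 4 calls, with adjusted p for Ndufb11 between 0.0562 and 0.1072 and log2 fold changes of 0.29 to 0.32. Without IMQ_Veh replicate 3, 8 members were higher. Ndufb11 also missed the threshold with the length correction (0.23, adjusted p = 0.07135), the muscle covariate (0.24, adjusted p = 0.3434) and the lane covariate (0 of the 4 members passing). Its neighbour Rbm10 overlaps it, and the strand setting of the counting is not given in the sources used here.

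No mtDNA-encoded gene passed, though 12 of 13 had positive fold changes (median 0.23) in the counts as deposited. mt-Nd6 had 0.40 (adjusted p = 0.1163) with copies added. Within L001 IMQ_Veh has a single library, and within L009 IMQ_GW3965 has, so members passing there were not read as a result.

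The third comparison, IMQ_Troglitazone against IMQ_Veh, concerns the PPARγ agonist. It shares the IMQ_Veh libraries with the GW3965 comparison. Respiratory chain genes were lower in CPM across complexes III, IV and V: 41 members fell and 0 rose (of all genes, 4.65% and 4.69%, or 9.34% either way), 39 of them nuclear. DESeq2 called 1 member higher. By edgeR's test, 66 of 100 members had an unadjusted p under 0.05 in either direction, beside 4826 of all 17130 genes. The nuclear median was -0.33, against -0.02 for all genes, and 80 of 87 values were negative. In TPM, nuclear members went both ways, as in 2 examples picked after the values were seen. Ndufa4 was at 849 ± 28.6 TPM with troglitazone and 1084 ± 47.9 in IMQ_Veh, and Uqcrc2 at 143 ± 4.14 and 129 ± 5.61. By role, 10 of 12 ubiquitous complex IV genes, 6 of 8 of complex III, 12 of 17 of complex V, 10 of 29 accessory and 1 of 7 core subunits of complex I fell, and 0 of 8 assembly factors.

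Ndufa4 was at 222 ± 12.0 CPM with troglitazone and 335 ± 29.7 without, above the 114 ± 5.84 of UTX_Veh (-0.59 log2, SE 0.11, adjusted p = 0.01373). Cox6b1 fell from 199 ± 23 to 134 ± 6.78 CPM (-0.57 log2, adjusted p = 0.01103) and Cox7a2, the ubiquitous form of subunit 7a, from 84.7 ± 2.84 to 62.2 ± 4.40 (-0.44 log2). These groups did not overlap.

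In complex V, Atp5k, a subunit of the membrane part, was at 81.1, 73.6 and 68.0 CPM in IMQ_Veh and 50.3, 49.1 and 44.5 in IMQ_Troglitazone. It had the largest fall of the nuclear members that passed (-0.63 log2, SE 0.11, adjusted p = 0.01159). Atp5mpl fell by 0.57 log2 units.

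In complex III, Uqcr10 and Uqcrh, the hinge protein that holds cytochrome c1, each fell by 0.55 log2 units (adjusted p = 0.008212 and 0.009476). In complex I, Ndufa3 was at 34.7, 32.0 and 32.8 CPM in IMQ_Veh and 23.8, 21.9 and 22 in IMQ_Troglitazone, close to the 20.9, 22.7 and 20.3 of UTX_Veh (-0.55 log2, SE 0.08, adjusted p = 0.007702). Ndufs6 fell by 0.51 and the core subunit Ndufv2 by 0.30 log2 units.

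Of the tissue isoforms 0 of 6 passed. Cox6a2, at 46.6 ± 2.82 CPM, lay above all IMQ_Veh libraries in every troglitazone library but 1, and the groups overlapped. Of the mtDNA-encoded genes with copies added, mt-Nd3 was lower (-0.59 log2, adjusted p = 0.01253), at 342, 308 and 349 CPM in IMQ_Veh and 214, 197 and 252 in IMQ_Troglitazone. mt-Nd1 was lower as well (-0.48 log2, adjusted p = 0.03453).

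These falls were also read against transcript length. Other genes had medians from -0.39 below 400 bases, where the members' median was -0.35, to 0.14 above 4000. The members' medians were lower than those of other genes in every longer class that holds members. They were -0.40 against -0.29 for 400 to 600 bases, -0.35 against -0.27 for 600 to 800 and -0.20 against -0.06 for 1500 to 2500. With the length trend removed, 0 members passed and the nuclear median was -0.11, and with the muscle covariate 0 passed at a median of -0.23. The muscle sums of IMQ_Veh replicates 1 and 2 (2410 and 2651 CPM) lay below all IMQ_Troglitazone libraries (7414 CPM or more). That covariate is thus largely confounded with group here too, and calls lost with it cannot separate muscle content from treatment. Summed erythrocyte markers were 238 to 635 CPM in IMQ_Veh and 151 to 240 in IMQ_Troglitazone, and their part was not tested. The number of members called lower was 4 without IMQ_Veh replicate 1, 22 without replicate 2, 57 without replicate 3, 21 without IMQ_Troglitazone replicate 1 or 2 and 10 without replicate 3, and 0 in a fit of these 6 libraries alone. The nuclear median was -0.36 within L001, with a single IMQ_Veh library, and -0.29 within L009, with a single IMQ_Troglitazone library.

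IMQ_GW3965 was also set directly against IMQ_Troglitazone, at doses that differ. Respiratory chain genes were higher in CPM with GW3965: 34 members rose and 0 fell (of all genes, 1.08% and 0.782%, or 1.86% either way), 33 of them nuclear. DESeq2 called 61 higher and 0 lower. By edgeR's test, 81 of 100 members had an unadjusted p under 0.05 in either direction, beside 2745 of all 17130 genes. The nuclear median was 0.40, against 0.01 for all genes, and 86 of 87 values were positive. In TPM, nuclear members went both ways, as in 2 examples picked after the values were seen. Atp5e was at 353 ± 48.8 TPM with GW3965 and 285 ± 15.9 with troglitazone, and Ndufs1 at 52.4 ± 2.07 and 66.0 ± 1.83. The 33 nuclear members that rose were 13 of 29 accessory and 3 of 7 core subunits of complex I, 3 of 8 of complex III, 6 of 12 ubiquitous genes of complex IV and 8 of 17 of complex V.

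Atp5e, the epsilon subunit of the central stalk of ATP synthase, was at 65.8, 71.9 and 66.6 CPM with GW3965 and 48.6, 42.5 and 42.9 with troglitazone. The drug groups did not overlap, and IMQ_Veh (67.0, 61.3 and 68.5 CPM) was about level with GW3965 (log2 fold change 0.61, SE 0.08, adjusted p = 0.02339). Ndufa3 (0.60), Uqcr11 (0.52) and Cox7a2 (0.52) were the members of largest change in accessory complex I, complex III and ubiquitous complex IV. With copies added, mt-Nd3 was higher by 0.76, mt-Co3 by 0.71 and mt-Co2 by 0.58 log2 units (adjusted p = 0.02262, 0.04967 and 0.04563).

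The tissue isoforms did not pass here, and muscle marker sums overlapped between the drugs. Erythrocyte marker sums did not overlap, at 448 to 560 CPM with GW3965 and 151 to 240 with troglitazone (median log2 difference 1.25, 1 of 5 passing), and their part was not tested. With the length trend removed 0 members passed and the nuclear median was 0.11, while 61 were higher with the muscle covariate. The shares of all genes passing in those fits are not given here. Other genes had medians of 0.41 below 400 bases and -0.19 above 4000. The members' medians were higher in each length class that holds members, at 0.46 against 0.36 for 400 to 600 bases and 0.41 against 0.32 for 600 to 800. Leaving out single libraries left 0 members higher without IMQ_GW3965 replicate 1 or 3 or IMQ_Troglitazone replicate 2 or 3, 4 without IMQ_GW3965 replicate 2 and 6 without IMQ_Troglitazone replicate 1. Within L001 0 members passed, at a nuclear median of 0.40. Within L009, with a single library of each drug, the nuclear median was 0.37.

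Other genes were described from 12 lists, most of mitochondrial function, with the cytosolic ribosome and glycolysis as lists outside it. Of all genes, 33.0% rose and 28.9% fell in IMQ_Veh against UTX_Veh. In IMQ_Veh against UTX_Veh, 72 of 78 mitochondrial ribosome genes rose (median 0.74) and 81 of 84 cytosolic ribosome genes rose with 1 lower (0.73), medians above that of the nuclear members. Of glycolysis genes, 15 of 19 rose and 3 fell (1.02), led by Pgam1 (2.32), Eno1 (2.30) and Pgk1 (1.99). Of 6 genes of complex II, cytochrome c and cytochrome c1, 3 rose and 0 fell. Cycs, cytochrome c, was at 59.99 ± 0.580 and 126 ± 5.24 CPM (1.07 log2). Sdhd of complex II rose by 0.92 and Cyc1, the cytochrome c1 of complex III, by 0.86.

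Assembly genes had medians of 0.05 to 0.30. Of complex IV assembly genes 6 of 18 rose and 1 fell, led by Coa7 (0.89), and of complex III assembly genes 1 of 6 rose (Uqcc2, 1.12) and 2 fell. The rises in these lists were near or below the 33.0% of all genes. Further complex I assembly genes had 4 of 8 higher, and genes of mtDNA expression 7 of 14 higher, led by Slirp (1.23) and Lrpprc (0.75), which stabilise mtDNA-encoded mRNA.

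Among regulators of mitochondrial biogenesis 8 of 13 rose and 4 fell. Ppard, a nuclear receptor of fatty acid use, rose by 1.75 log2 units, while Ppara fell by 1.75 and Ppargc1a, the coactivator PGC-1α, fell by 1.65. Of the tricarboxylic acid cycle 9 of 17 rose and 3 fell, with Mdh2 at 0.60 and Idh2 at -0.53. Of fatty acid oxidation 8 of 12 rose and 2 fell, with Cpt2 at 0.86 and the muscle form Cpt1b at -1.58. Of carriers and uncouplers 6 of 10 rose and 2 fell, with the ADP/ATP carrier Slc25a5 at 1.51 and the muscle creatine kinase Ckmt2 at -1.21.

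With troglitazone against IMQ_Veh, 69 of 84 cytosolic ribosome genes fell (median -0.39), as did 17 of 78 of the mitochondrial ribosome (-0.29), 7 of 19 of glycolysis, 3 of 10 carriers, 2 of 6 of the complex II and cytochrome list, and 1 each of fatty acid oxidation, mtDNA expression and biogenesis regulators. None of the 12 lists held a gene that rose. Of all genes, 4.65% fell and 4.69% rose. Pgk1 fell by 0.73 and Sdhd by 0.45 log2 units.

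With GW3965 against IMQ_Veh, few genes of the lists passed, 2 of 12 of fatty acid oxidation, 2 of 17 of the tricarboxylic acid cycle, 4 of 19 of glycolysis and 1 of 10 carriers. Acadm (0.53) and Acadvl (0.39) of fatty acid oxidation and Idh3g (0.30) of the tricarboxylic acid cycle rose, as did the muscle ADP/ATP carrier Slc25a4 (0.92). Of glycolysis 1 rose and 3 fell, with the glucose transporter Slc2a1 at -0.70. Of the ribosome lists 1 gene rose in each, and Ppard fell by 0.67. Of all genes, 3.71% rose and 2.88% fell. Between the drugs, 49 of 84 cytosolic and 5 of 78 mitochondrial ribosome genes were higher with GW3965, where 1.08% of all genes were. So were 2 complex III assembly genes and 1 each of complex IV assembly, mtDNA expression and fatty acid oxidation.

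Other cell type markers changed in the same libraries. Keratinocyte markers rose from 18256 to 21188 CPM in UTX_Veh to 61725 to 88694 in IMQ_Veh, with 7 of 8 higher, and proliferation markers from 128 to 172 to 658 to 985 CPM, with 8 of 8 higher. Neutrophil markers were at 7.86 to 23.2 CPM in UTX_Veh, 5738 to 10089 in IMQ_Veh, 270 to 2018 in IMQ_GW3965 and 380 to 1960 in IMQ_Troglitazone. Their part in the changes of the respiratory chain genes was not tested. Of 7 macrophage markers 5 rose and of 5 erythrocyte markers 5, while 7 of 8 cartilage, 4 of 5 heart or slow muscle, 3 of 8 white adipocyte, 4 of 6 T cell, 3 of 5 sebaceous gland, 1 of 6 fibroblast and 1 of 5 endothelial markers fell. Brown adipocyte markers had 1 of 4 higher and 2 lower. Of all genes, 33.0% rose and 28.9% fell, so the fibroblast and endothelial counts are below that share.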

How the data were processed

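Ear skin mRNA was sequenced in 12 libraries (stranded TruSeq mRNA kit, per the labels' protocols). Per the submitters' processing notes, the authors used FastQC, Trim Galore, STAR 2.7.3a and RSEM 1.3.3 with GRCm38/mm10; for the annotation release and strand setting nothing is given in the sources used here. The deposited tables hold RSEM expected counts, TPM and transcript length per gene, per the file headers. Identifiers were named from GENCODE M21 (52135 of 55416 matched).

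Expected counts were rounded, filtered with filterByExpr and TMM-scaled, and 17130 genes were fitted over all 12 libraries with edgeR 4.0.16 (R 4.3.3; quasi-likelihood, 8 residual degrees of freedom, Benjamini-Hochberg adjusted p under 0.05, no fold limit). This was tested on simulated data. Groups came from the labels. Alternatives were DESeq2 1.42.0, limma-voom 3.58.1, other scalings and filters, a replicate block, the lane field, a length correction (lowess span 0.3), a muscle covariate (log2 sum of 23 markers) and left-out libraries. Nuclear copies were found with blastn 2.17.0 (identity of at least 95%).

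Named were the 13 mtDNA-encoded genes, the complex IV isoform pairs, the member of highest TPM in each role, per comparison and role, among changed members with means of 1 CPM or more, the 2 of largest fold change each way, and up to 3 changed genes of each background list. Some genes named by this rule are not reported here. Members and lists were chosen with earlier results of these data known.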

Additional observations from a re-analysis of the deposited data

How the results depend on the processing

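In all, 29 alternatives were run. Within L001, IMQ_Veh keeps a single library, and within L009 each other group does. Counts of members passing against a single library decide nothing. For the alternative fits, here and above, the shares of all genes passing are not given. A changed count of members there cannot be told apart from a change in calls over all genes. Of 1522 values of named members, 1104 kept direction and side of the threshold, 398 lost and 13 gained the call, and 7 reversed. Causes were not tested except where fewer libraries make the fit smaller. Libraries held 18242074 to 25641602 counts, and what this depth means for members of low level, such as Cox6b2 near 5 TPM, was not tested.

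For IMQ_Veh against UTX_Veh (70 higher, 7 lower, nuclear median 0.6373), the number higher was 5 within L009 and 33 with the muscle covariate. The number lower was 11 with upper-quartile scaling, which moved the median of all genes to -0.1139, 4 with only the 2 groups, 0 within L009, 18 with the length correction, 18 with length correction and replicate block, and 0 with the muscle covariate. The median was 0.5159 with upper-quartile scaling, 0.6945 within L001, 0.5692 within L009, 0.2561 with the length correction, 0.2532 with the block added and 0.4703 with the muscle covariate. Leaving out 1 library gave 65 to 71 higher, 4 to 9 lower and medians of 0.5686 to 0.6728.

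For GW3965 against IMQ_Veh (4 higher, 0 lower, median 0.0544), the number higher was 7 with DESeq2, 0 with only the 2 groups, with the lane covariate, within L009 or with the muscle covariate, 1 with the length correction, 2 with the block added and 6 with the replicate block alone. Without IMQ_Veh and IMQ_GW3965 replicates 3 together, 3 were lower and the median was -0.0421; with the muscle covariate it was 0.1735. Leaving out 1 library gave 0 to 8 higher and medians of 0.0054 to 0.0935.

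For troglitazone against IMQ_Veh (0 higher, 41 lower, median -0.3288), 1 was higher with DESeq2 or limma-voom and 3 within L001. The number lower was 25 without a filter, 0 with only the 2 groups, 16 within L001, 0 within L009, 0 with the length correction, 1 with the block added, 35 with the replicate block alone and 0 with the muscle covariate. The median was -0.1142 with the length correction, -0.1147 with the block added and -0.2292 with the muscle covariate. Leaving out 1 library gave 0 to 3 higher, 4 to 57 lower and medians of -0.3791 to -0.2748.

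For GW3965 against troglitazone (34 higher, median 0.3995), the number higher was 61 with DESeq2 or the muscle covariate, 11 without a filter, 0 with only the 2 groups, within L001, within L009, with the length correction or with the block added to it, and 14 with the replicate block. The median was 0.1147 with the length correction and 0.1148 with the block added. Leaving out 1 library gave 0 to 6 higher and medians of 0.3179 to 0.4358. Libraries of the same replicate number correlated between -0.22 and 0.31, so the numbers were not taken to pair them.

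The reversed values all belong to IMQ_Veh against UTX_Veh. They were mt-Atp8 at 0.0232 without UTX_Veh replicate 2 (-0.1536 to 0.0232 over left-out libraries), mt-Cytb at 0.0051 within L009 and 0.0240 with the muscle covariate, and, with that covariate, mt-Nd6 at 0.1092, Cox4i2 at 0.5389, Cox6b2 at 0.8584 and Cox7a2l at 0.1414.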
